A study of Homo sapiens with 14 samples.

Results

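The 10 inflammatory cytokine and colony-stimulating factor genes described here were measured in MDA-MB-231 cells, an established human line of triple-negative breast cancer with a mesenchymal phenotype: IL6, IL11, LIF, IL1A, IL1B, CSF1, CSF2, CXCL8 (listed under its older symbol IL8), CXCL1 and CXCL2. They were given as a list of symbols. All 10 were found among the 13734 genes of the deposited expression table, 9 by the listed symbol and 1 by the newer one. The study compared loss of the transcriptional co-activators YAP and TAZ with loss or inhibition of BET bromodomain proteins. There were 7 groups of 2 libraries. The knockdown groups were YAP/TAZ siRNA mix 1 and mix 2, harvested 48 h after transfection, and BRD siRNA mix A and mix B, harvested after 72 h, and their reference was control siRNA. JQ1, an inhibitor of BET bromodomains, was given at 1 µM for 24 h, with DMSO as its reference. All groups used this line in the same serum-containing medium. The siRNA sequences behind each mix, the harvest time of the control siRNA cells and the exposure time of the DMSO cells were not in the sources used here. Nothing in the labels says whether the 2 libraries of a group came from separate cultures, so the p-values measure the spread between these libraries, which may be technical.

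The 10 genes encode secreted signals that epithelial, stromal and immune cells exchange during inflammation. IL6, IL11 and LIF belong to 1 family whose receptors share the signal-transducing subunit gp130 (encoded by IL6ST) and act through JAK kinases and STAT3. IL1A and IL1B are the agonists of the type 1 interleukin-1 receptor and sit at the top of many inflammatory cascades, CSF1 and CSF2 support macrophages and other myeloid cells, and CXCL8, CXCL1 and CXCL2 attract neutrophils through the receptors CXCR1 and CXCR2. Many of these transcripts are short-lived because AU-rich elements in their 3′ ends recruit decay factors, and many of the genes respond to NF-kB, C/EBP and AP-1 transcription factors.

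Levels are given in scaled RPM, the deposited values, which are proportional to reads and close to CPM but whose columns sum to between 903627 and 1098052. Depth lay between 15741695 and 37311326 reads in genes per library, so that a single read was worth 0.0276 to 0.0602 scaled RPM. The targeted genes given here were lower in the libraries labelled for them. YAP1 averaged 21.6 scaled RPM in YAP/TAZ siRNA and 182 in control siRNA, and WWTR1, the gene for TAZ, averaged 14.5 and 131. In BRD siRNA, BRD2 averaged 175 and BRD3 9.76 scaled RPM, against 252 and 31.1 in control siRNA. Some of these genes moved in other groups too. YAP1 was also lower in BRD siRNA (100 scaled RPM) and in JQ1 (103, against 186 in DMSO). BRD2 was higher in JQ1 (937, against 249 in DMSO). Of 8 mesenchymal markers of the line 7 were rows of the table, led by VIM at 2894 to 6615 scaled RPM, while of 5 epithelial or luminal markers ERBB2 (46.5 to 98.0 scaled RPM) and EPCAM (4.05 to 18.6) were rows and ESR1, PGR and CDH1 were not. EPCAM fell with BRD siRNA (-1.51) and with JQ1 (-1.29), and ERBB2 rose with both (0.39 and 0.89). Of 14 leukocyte markers 5 were present (CD8A, CD14, CD68, LYZ and CSF1R), and the pan-leukocyte marker PTPRC was not. The 5 summed to 137 to 141 in YAP/TAZ mix 1, 183 to 207 in mix 2 and 38.5 to 43.7 in the BRD mixes, against 70.7 to 73.3 in control siRNA, and to 79.9 to 83.6 in JQ1 against 71.9 to 72.9 in DMSO. Most of each sum was CD68 (78.8 in JQ1 against 67.5 in DMSO), and LYZ (1.101 against 2.14) and CSF1R (0.173 against 1.27) fell with JQ1. Of 13 fibroblast and endothelial markers 4 were present (PDGFRB, COL1A1, PECAM1 and KDR), and they summed to 39.1 to 47.6 in the YAP/TAZ mixes and 32.7 to 53.2 in the BRD mixes, against 13.6 to 17.9 in control siRNA, and to 18.2 to 18.9 in JQ1 against 12.2 to 13.3 in DMSO. The BRD siRNA sum was carried by KDR (40 in BRD mix A and 24.9 in BRD mix B, against 4.20 in control siRNA), while PDGFRB fell (-0.38), to 0.864 in BRD mix B but with 4.96 in BRD mix A, against 3.30 in control siRNA. The part of these shifts in the cytokine results was not tested. In bulk RNA, fewer cells of a type and less RNA per cell cannot be told apart.

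Divided by the exonic length of each gene, IL11 had the highest mean in both control groups, at 32.6 scaled RPM per kb in control siRNA and 30.8 in DMSO. In control siRNA the libraries of IL11 (31.6 to 33.6) and CSF1 (28.1 to 32.7) overlapped. The lengths cover all exons in GENCODE v29, which may not be the annotation used for counting. CSF1 followed at 30.4 and LIF at 13.8 scaled RPM per kb in control siRNA, and in DMSO their order was turned, with LIF at 10.97 and CSF1 at 8.63. CSF2 had 10.4 scaled RPM per kb in control siRNA and 2.00 in DMSO, and CXCL8 had 3.62 and 2.31. CXCL1, IL6, CXCL2, IL1A and IL1B lay between 0.155 and 1.21 scaled RPM per kb in control siRNA. At these levels IL1B rested on 8 and 9 reads and IL1A on 13 and 13 reads in the control siRNA libraries, so their fold changes are imprecise. IL1A and IL1B passed the filter on low values, which asked for 1 scaled RPM or more in 2 or more libraries, only through YAP/TAZ mix 1, so that their difference in that group was a condition of their being tested. Their values in mix 1, and in comparisons that include it, are therefore given as a description with no p.

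**Figure D1:**
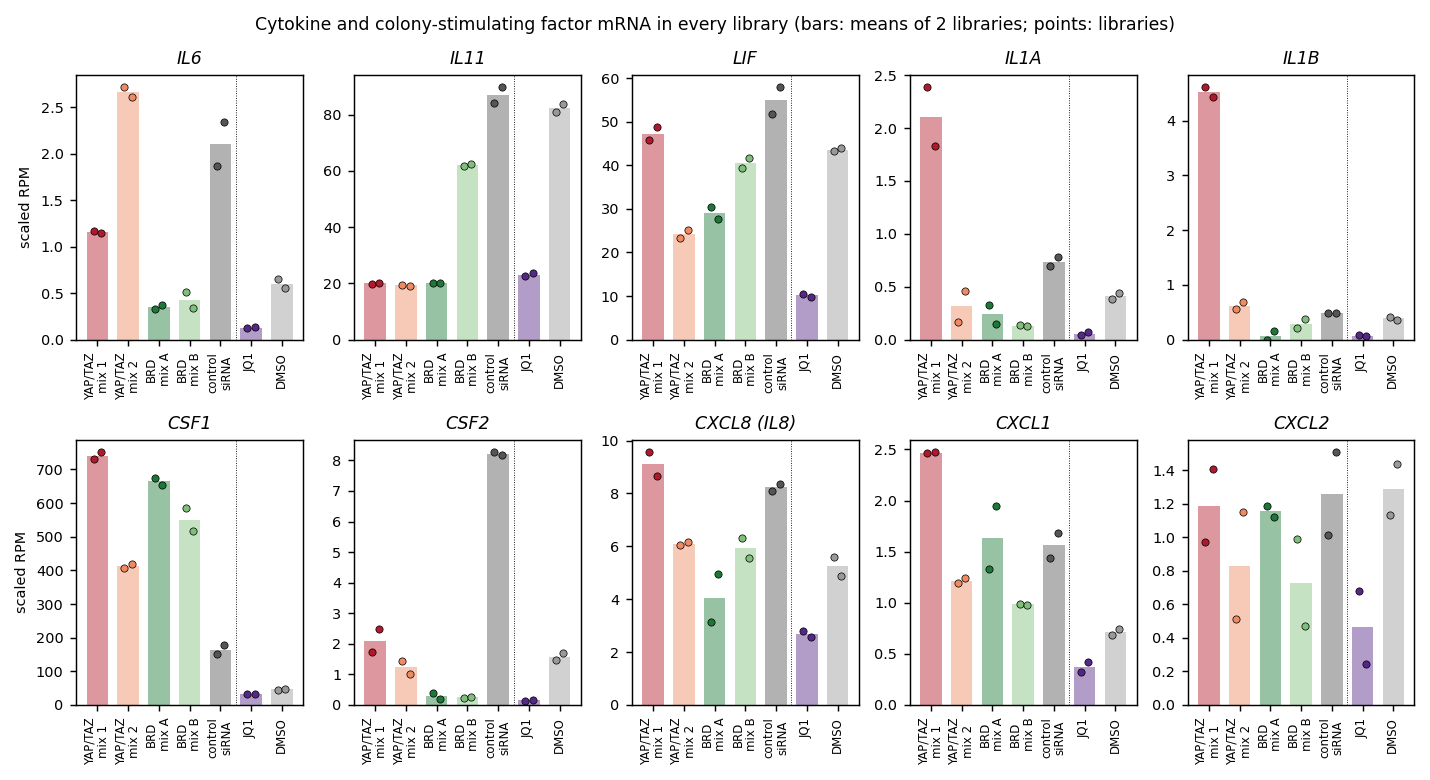
Levels of the 10 transcripts in scaled RPM (y axes, each from 0 and each on its own scale) in the 7 groups (x axes). Bars are means and points are the 2 libraries of a group, and the dotted line separates the siRNA groups from JQ1 and DMSO. IL11 stood near 20 in 3 of the 4 knockdown groups and near 85 in both controls, CSF1 stood above 400 in all 8 knockdown libraries, and CSF2 was highest in control siRNA.

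The 3 perturbations moved the 10 genes in different ways. With YAP/TAZ siRNA, 3 genes fell (IL11, CSF2 and LIF) and 2 were higher (CSF1 and IL1B). Of these 2, IL1B is a description only, because it passed the filter only through YAP/TAZ mix 1. With BRD siRNA, 7 fell (CSF2, IL11, IL6, LIF, CXCL8, IL1A and IL1B) and 1 rose (CSF1). With JQ1, all 10 fell, a count of 7 to 8 when any 1 of its 4 libraries was left out. These counts are by limma at a Benjamini-Hochberg adjusted p under 0.05 over 13674 genes. Most genes in the table moved in these comparisons, so the counts must be read against that. Of all genes tested 43.1% rose and 35.9% fell with YAP/TAZ siRNA, 37.6% rose and 37.6% fell with BRD siRNA, and 37.6% rose and 36.3% fell with JQ1. The 3 of 10 that fell with YAP/TAZ siRNA were near that background, whereas the shares that fell with BRD siRNA and with JQ1 were above it. Against DMSO the BRD siRNA share was not above it, as given below. On the scale of log2(scaled RPM + 1), the median difference of the 10 genes was -0.13 with YAP/TAZ siRNA, -0.61 with BRD siRNA and -0.58 with JQ1, beside medians of all genes of 0.07, -0.00 and 0.01. Both knockdown comparisons share the same 2 control siRNA libraries. With the same sum in every library, the median of all genes moved to -0.11 with BRD siRNA, and of all genes called there 40.8% were higher instead of 50%.

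**Figure D2:**
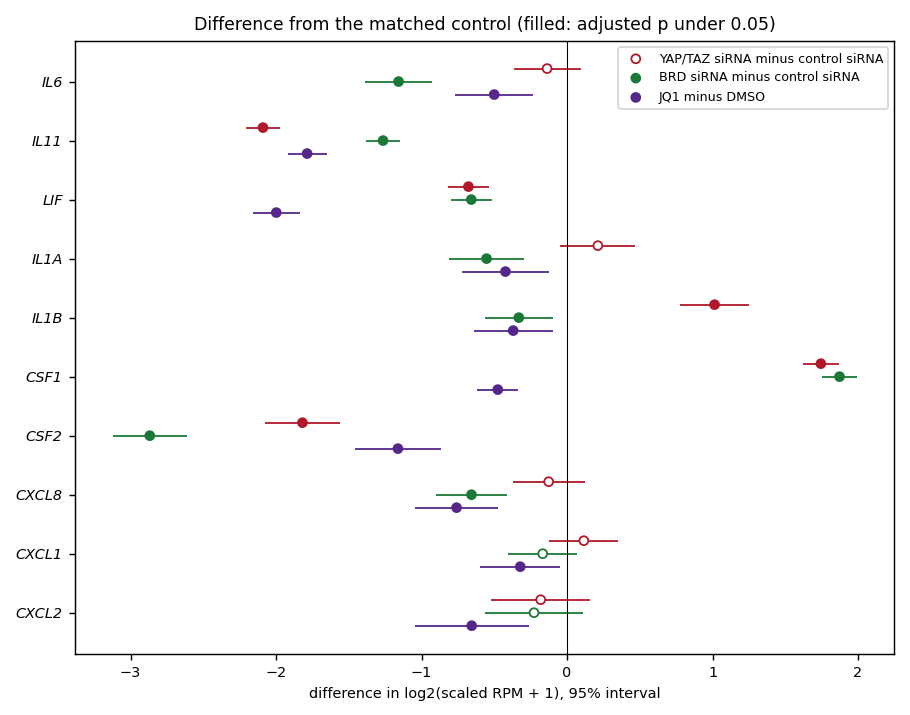
Difference in log2(scaled RPM + 1) from the matched control (x axis) for each gene (y axis), with 95% intervals from limma; filled points had an adjusted p under 0.05. All 10 JQ1 points lie left of 0, and CSF1 and IL1B have filled points on both sides of 0. The YAP/TAZ points of IL1A and IL1B are a description, since both passed the filter only through YAP/TAZ mix 1.

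IL11, a gp130 cytokine known for its part in fibrosis and in the bone metastasis of breast cancer, had 19.9 and 20.1 scaled RPM in YAP/TAZ mix 1 and 19.5 and 19.1 in mix 2, against 84.3 and 89.8 in control siRNA. It had 20.2 and 20.3 in BRD mix A and 61.7 and 62.3 in BRD mix B, and 22.7 and 23.6 in JQ1, against 81.0 and 83.7 in DMSO. Every knockdown library lay below every control siRNA library, and both JQ1 libraries below both DMSO libraries. The log2 difference was -2.09 with YAP/TAZ siRNA (SE 0.056, adjusted p = 5.94e-18), -1.27 with BRD siRNA (SE 0.056, adjusted p = 2.48e-14) and -1.79 with JQ1 (SE 0.065, adjusted p = 1.04e-15), which leaves 0.226, 0.473 and 0.281 of the reference mean. The BRD value averages 2 unlike mixes: mix A left 0.233 and mix B 0.712 of the control siRNA mean, and the difference between mix A and mix B was -1.57 (95% interval -1.70 to -1.43, adjusted p = 4.84e-14). IL11 differed little between the control groups, and its fall held against either of them.

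LIF, which signals through the LIF receptor and gp130 and is known for holding mouse embryonic stem cells in an undifferentiated state, had 45.8 and 48.7 scaled RPM in YAP/TAZ mix 1 and 23.4 and 25.1 in mix 2, against 51.8 and 57.9 in control siRNA. It had 30.5 and 27.8 in BRD mix A and 39.4 and 41.6 in mix B, and 10.5 and 9.76 in JQ1, against 43.2 and 43.9 in DMSO. No group overlapped its reference. The log2 difference was -0.68 with YAP/TAZ siRNA (SE 0.067, adjusted p = 8.32e-09), -0.66 with BRD siRNA (SE 0.067, adjusted p = 1.56e-08) and -2.00 with JQ1 (SE 0.077, adjusted p = 3.01e-15). JQ1 thus left 0.233 of the DMSO level, and the JQ1 difference was below the BRD siRNA difference by 1.34 on the log2 scale (adjusted p = 6.74e-10). Within YAP/TAZ siRNA the change lay mainly in mix 2 (-1.15, adjusted p = 1.80e-11). In mix 1 it was -0.21 (adjusted p = 0.0186), a call that did not hold without control siRNA replicate 2 (-0.13, adjusted p = 0.192) or without YAP/TAZ mix 1 replicate 1 (-0.17, adjusted p = 0.136). Antisense genes overlap LIF (LIF-AS1 and AC004264.1 in GENCODE v29), and the sources used here do not say whether counting used strand, so reads from them cannot be told apart from LIF reads.

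IL6, the founding gp130 cytokine and an inducer of the acute-phase response, was low in these cells. It had 1.17 and 1.15 scaled RPM in YAP/TAZ mix 1 and 2.72 and 2.62 in mix 2, against 1.87 and 2.35 in control siRNA. It had 0.332 and 0.374 in BRD mix A and 0.510 and 0.341 in mix B, and 0.12 and 0.14 in JQ1, against 0.648 and 0.552 in DMSO. Mix 1 lay below and mix 2 above both control siRNA libraries. The fall in mix 1 passed the test (-0.52, adjusted p = 0.00107), whereas the value in mix 2 did not (0.24, adjusted p = 0.0870), although it did without control siRNA replicate 2 (0.36, adjusted p = 0.0391), and the difference between mix 1 and mix 2 was -0.76 (adjusted p = 2.46e-05). Against DMSO the value in mix 1 turned (0.43, adjusted p = 0.00394). BRD siRNA lowered IL6 by about equal amounts in mix A (-1.20) and mix B (-1.12), to 0.185 of the control siRNA mean over both mixes (adjusted p = 6.00e-09). JQ1 left 0.217 of the DMSO mean (log2 difference -0.50, adjusted p = 0.00143), on 3 and 4 reads per JQ1 library. STEAP1B and an antisense gene lie on the opposite strand across part of IL6, with the same limit on its reads.

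IL1A and IL1B, which lie close together on chromosome 2 and encode interleukin-1 alpha and beta, were low in every group but YAP/TAZ mix 1. IL1B had 4.61 and 4.43 scaled RPM in YAP/TAZ mix 1 (114 and 104 reads) and 0.552 and 0.688 in mix 2, against 0.480 and 0.482 in control siRNA. IL1A had 2.39 and 1.83 in mix 1 and 0.170 and 0.459 in mix 2, against 0.693 and 0.783 in control siRNA. Both mix 1 libraries stood above all 12 other libraries for both genes. In mix 1 the log2 difference from control siRNA was 1.90 for IL1B and 0.83 for IL1A. In mix 2, IL1B did not pass the test (0.13, 95% interval -0.14 to 0.40, adjusted p = 0.371) and IL1A fell (-0.41, adjusted p = 0.0126). The IL1A fall in mix 2 rested on 4 and 10 reads and was lost without YAP/TAZ mix 2 replicate 1 (-0.25, adjusted p = 0.168), without control siRNA replicate 2 (-0.37, adjusted p = 0.0602) and in DESeq2 (adjusted p = 0.0681). The higher level of IL1B with YAP/TAZ siRNA as a whole (1.01) therefore lay in mix 1, and IL1A had 0.21 over both mixes, or 0.29 without YAP/TAZ mix 2 replicate 1.

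With BRD siRNA, IL1A had 0.332 and 0.150 scaled RPM in mix A and 0.136 and 0.128 in mix B (3 to 7 reads), and IL1B was at 0 and 4 reads in mix A and at 6 and 9 reads in mix B. With JQ1, IL1A had 1 and 2 reads and IL1B 2 and 2 reads, against 12 and 16 reads for IL1A and 13 and 13 reads for IL1B in DMSO. The calls were lower in both comparisons, with log2 differences of -0.55 and -0.42 for IL1A and -0.33 and -0.37 for IL1B (adjusted p = 0.000408, 0.0112, 0.0120 and 0.0148 in that order). They were weak. The BRD siRNA call of IL1B did not hold once control siRNA replicate 2 was left out (-0.33, adjusted p = 0.0504). The JQ1 call of IL1A was lost without DMSO replicate 2 (-0.40, adjusted p = 0.0609) or JQ1 replicate 1 (-0.40, adjusted p = 0.0555), and that of IL1B without DMSO replicate 1 (-0.34, adjusted p = 0.0830), JQ1 replicate 1 (-0.38, adjusted p = 0.0507) or JQ1 replicate 2 (-0.36, adjusted p = 0.0586).

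CSF1, which controls the survival and growth of macrophages and is read by the receptor CSF1R, was the most abundant of the 10 transcripts after knockdown. It had 732 and 751 scaled RPM in YAP/TAZ mix 1, 407 and 418 in mix 2, 674 and 655 in BRD mix A and 585 and 517 in BRD mix B, against 152 and 177 in control siRNA. It had 32.9 and 33.7 in JQ1, against 45.5 and 48.0 in DMSO. All 8 knockdown libraries stood above both control siRNA libraries, and both JQ1 libraries below both DMSO libraries. CSF1 rose 3.50-fold with YAP/TAZ siRNA (log2 difference 1.74, SE 0.058, adjusted p = 1.88e-16) and 3.69-fold with BRD siRNA (1.87, SE 0.058, adjusted p = 1.17e-16). With JQ1 it fell to 0.713 of the DMSO mean (-0.48, SE 0.067, adjusted p = 1.87e-06). The JQ1 difference minus the BRD siRNA difference was -2.35 (95% interval -2.53 to -2.16, adjusted p = 2.42e-14), with the exposure at 24 h for JQ1 and 72 h for BRD siRNA.

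CSF2, the granulocyte-macrophage colony-stimulating factor, had 1.74 and 2.47 scaled RPM in YAP/TAZ mix 1, 1.44 and 1.01 in mix 2, 0.379 and 0.187 in BRD mix A and 0.238 and 0.256 in BRD mix B, against 8.26 and 8.19 in control siRNA. It had 0.12 and 0.176 in JQ1, against 1.46 and 1.68 in DMSO. No knockdown library came near the control siRNA level, and the groups did not overlap. CSF2 fell to 0.203 of the control siRNA mean with YAP/TAZ siRNA (-1.82, SE 0.12, adjusted p = 1.82e-11), to 0.0322 with BRD siRNA (-2.87, SE 0.12, adjusted p = 1.47e-14) and to 0.0941 of the DMSO mean with JQ1 (-1.16, SE 0.14, adjusted p = 2.41e-07). Only 5 to 8 reads per library remained with BRD siRNA and 3 to 5 with JQ1. Mix A and mix B of BRD siRNA could not be told apart (difference 0.04, 95% interval -0.26 to 0.33).

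CXCL8, known as interleukin-8, had 9.55 and 8.65 scaled RPM in YAP/TAZ mix 1 and 6.03 and 6.15 in mix 2, against 8.10 and 8.37 in control siRNA. It had 3.13 and 4.93 in BRD mix A and 6.33 and 5.54 in mix B, and 2.81 and 2.56 in JQ1, against 5.61 and 4.89 in DMSO. Mix 1 stood above and mix 2 below control siRNA, and YAP/TAZ siRNA as a whole did not pass the test (-0.13, 95% interval -0.37 to 0.12, adjusted p = 0.331). The fall in mix 2 (-0.38, adjusted p = 0.0156) did not hold without control siRNA replicate 2 (-0.36, adjusted p = 0.0619) or mix 2 replicate 1 (-0.37, adjusted p = 0.0646). CXCL8 fell with BRD siRNA to 0.605 (-0.66, SE 0.12, adjusted p = 4.20e-05) and with JQ1 to 0.512 of the reference mean (-0.76, SE 0.14, adjusted p = 4.18e-05).

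CXCL1 and CXCL2 encode chemokines that share receptors with CXCL8. CXCL1 had 2.47 and 2.47 scaled RPM in YAP/TAZ mix 1, 1.19 and 1.24 in mix 2, 1.33 and 1.94 in BRD mix A and 0.986 and 0.980 in BRD mix B, against 1.44 and 1.69 in control siRNA, and 0.321 and 0.421 in JQ1 against 0.681 and 0.746 in DMSO. CXCL1 overlapped control siRNA in BRD mix A and in the pooled YAP/TAZ and BRD groups, and neither pooled comparison passed the test (adjusted p = 0.359 and 0.189). The rise in YAP/TAZ mix 1 did (0.44, adjusted p = 0.00515), although not in DESeq2 (adjusted p = 0.124). CXCL2 stayed between 0.469 and 1.505 scaled RPM in every siRNA library, and its libraries overlapped between control siRNA and all knockdown groups except BRD mix B. No knockdown comparison of CXCL2 passed the test. It did pass for mix B without control siRNA replicate 1 (-0.55) or mix B replicate 1 (-0.61), and for YAP/TAZ mix 2 without its replicate 2 (-0.57). In JQ1 it had 0.682 and 0.246, against 1.13 and 1.44 in DMSO (-0.66, adjusted p = 0.00361), a call lost without JQ1 replicate 2 (-0.44, adjusted p = 0.0873). The JQ1 fall of CXCL1 (-0.32, adjusted p = 0.0327) was lost in each of the 4 leave-outs (-0.27 without JQ1 replicate 1 to -0.37 without JQ1 replicate 2, adjusted p = 0.0516 to 0.157; -0.35 and -0.29 without DMSO replicate 1 and 2). CXCL1, CXCL2 and the related CXCL3 are near-identical in places: 60 of the 1247 stretches of 50 bases in CXCL1 transcripts also occur in CXCL2, and 139 of the 1546 in CXCL2 also occur in CXCL3. How the authors' counting treated such reads is not given, so the split between these genes is uncertain.

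The pseudocount of 1 shrinks differences of low genes. On the recovered whole reads, edgeR's quasi-likelihood test gave larger log2 fold changes for the members near the floor. CSF2 stood at -4.96 with BRD siRNA and -3.35 with JQ1, IL6 at -2.40 and -2.15, IL1A at -2.04 and -2.79, and IL1B at -1.60 and -2.30. CXCL1 and CXCL2 stood at -0.93 and -1.51 with JQ1. In YAP/TAZ siRNA, CSF2 stood at -2.35 and IL1B at 1.79. For the abundant members the methods gave close values: with JQ1, IL11 stood at -1.83, LIF at -2.10 and CSF1 at -0.49 in edgeR.

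Upstream sequence is shown for IL11 and CSF2, which fell in all 3 comparisons, and for CXCL8, which fell with BRD siRNA and with JQ1 and whose window holds both kinds of motif marked here. Windows of 300 bases around the annotated start, most of each lying before it (RefSeq, GRCh38.p14, given 5′ to 3′ on the gene's strand), matched 8 of the 10 genes. Capitals mark matches to an AP-1 motif (TGANTCA) or a kappa-B-type motif (GGNNNTTCC) on either strand, N being any base. IL11 lies at chr19:55370414-55370713 on the minus strand, CSF2 at chr5:132073539-132073838 on the plus strand and CXCL8 at chr4:73740319-73740618 on the plus strand.
IL11: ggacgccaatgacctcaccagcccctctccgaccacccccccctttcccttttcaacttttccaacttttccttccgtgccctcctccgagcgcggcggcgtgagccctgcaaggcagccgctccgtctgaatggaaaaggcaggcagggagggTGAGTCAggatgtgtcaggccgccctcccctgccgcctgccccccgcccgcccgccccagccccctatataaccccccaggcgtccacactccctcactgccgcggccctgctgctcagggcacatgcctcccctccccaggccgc
CSF2: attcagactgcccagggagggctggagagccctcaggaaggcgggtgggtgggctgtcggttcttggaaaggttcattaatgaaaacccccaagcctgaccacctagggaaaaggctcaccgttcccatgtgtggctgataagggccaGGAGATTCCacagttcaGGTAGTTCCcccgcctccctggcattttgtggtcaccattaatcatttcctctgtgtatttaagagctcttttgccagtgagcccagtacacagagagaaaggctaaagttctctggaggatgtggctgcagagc
CXCL8: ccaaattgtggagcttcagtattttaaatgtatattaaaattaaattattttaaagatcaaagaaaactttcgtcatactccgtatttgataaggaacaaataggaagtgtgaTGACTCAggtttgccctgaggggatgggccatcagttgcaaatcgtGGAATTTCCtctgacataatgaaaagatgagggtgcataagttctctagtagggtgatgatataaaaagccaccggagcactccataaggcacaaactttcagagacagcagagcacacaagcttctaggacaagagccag
IL11 held 1 AP-1 match 96 bases before the start, CSF2 held 2 kappa-B-type matches, and CXCL8 held 1 of each, at 137 and 91 bases before the start. Among the 8 genes with a window, 3 held an AP-1 match (IL11, CXCL8 and IL1A) and 5 a kappa-B-type match (IL6, CXCL8, CSF2, CXCL1 and CXCL2), while of 35116 RefSeq windows of this length 7.71% and 20.1% did. The members are counted by gene, IL1A having 2 windows, and the shares by window. In these windows CXCL1 and CXCL2 carried the same pair of kappa-B-type matches in letters. The TEAD motif GGAATG, through which YAP and TAZ are known to reach DNA, was found in no window of the 8 genes and in 14% of all RefSeq windows. A match is a description of letters and not a measured site, and none of the matches bears on what was bound in these cells.

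The siRNA mixes of 1 target were compared directly. Against control siRNA, YAP/TAZ mix 1 had 4 members higher (CSF1, IL1B, IL1A and CXCL1) and 4 lower, where 40.6% and 33.6% of all genes were called, and mix 2 had 1 higher and 5 lower, where 42.7% and 35.7% were. In the direct comparison of mix 1 with mix 2, 8 members differed, with 65.7% of all genes called in either direction, so this count is near the background. IL1B and IL1A enter the mix 1 count and this count as descriptions, since they passed the filter only through mix 1. IL1B (1.77), IL1A (1.25), LIF (0.94), CSF1 (0.84), CXCL1 (0.65), CXCL8 (0.51) and CSF2 (0.48) were higher in mix 1, and IL6 was lower in it. The CSF2 difference was lost without YAP/TAZ mix 1 replicate 2 (0.31, adjusted p = 0.119) or mix 2 replicate 2 (0.34, adjusted p = 0.0913). IL11 did not pass the test (0.05, 95% interval -0.09 to 0.18, adjusted p = 0.540). BRD mix A and mix B each had 1 member higher and 7 lower than control siRNA, beside 37.2% and 36.1% of all genes for mix A and 35.3% and 35.5% for mix B. In mix A the call of IL1A was lost without mix A replicate 2 (-0.38, adjusted p = 0.0564). In mix B, CXCL8 lost its call without mix B replicate 2 (-0.33, adjusted p = 0.0913), and CXCL1 (-0.37) lost it without control siRNA replicate 2 (-0.30), mix B replicate 1 (-0.37) or mix B replicate 2 (-0.37). Mix A had 39.9% of its calls over all genes higher with the same sum in every library, instead of 50.7%. Between mix A and mix B 5 members differed, with 50% of all genes called, which is the background share. IL11 (-1.57), CXCL8 (-0.48) and LIF (-0.46) were lower in mix A, and CXCL1 (0.40) and CSF1 (0.27) higher. Of these 5, IL11 and LIF kept their call in every leave-out, whereas CXCL8, CXCL1 and CSF1 each lost it without at least 1 of the BRD libraries: CXCL8 without mix A replicate 1 (-0.22) or mix B replicate 1 (-0.40), CXCL1 without mix A replicate 2 (0.23) or mix B replicate 1 (0.40) or 2 (0.40), and CSF1 without mix B replicate 2 (0.18).

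**Figure D3:**
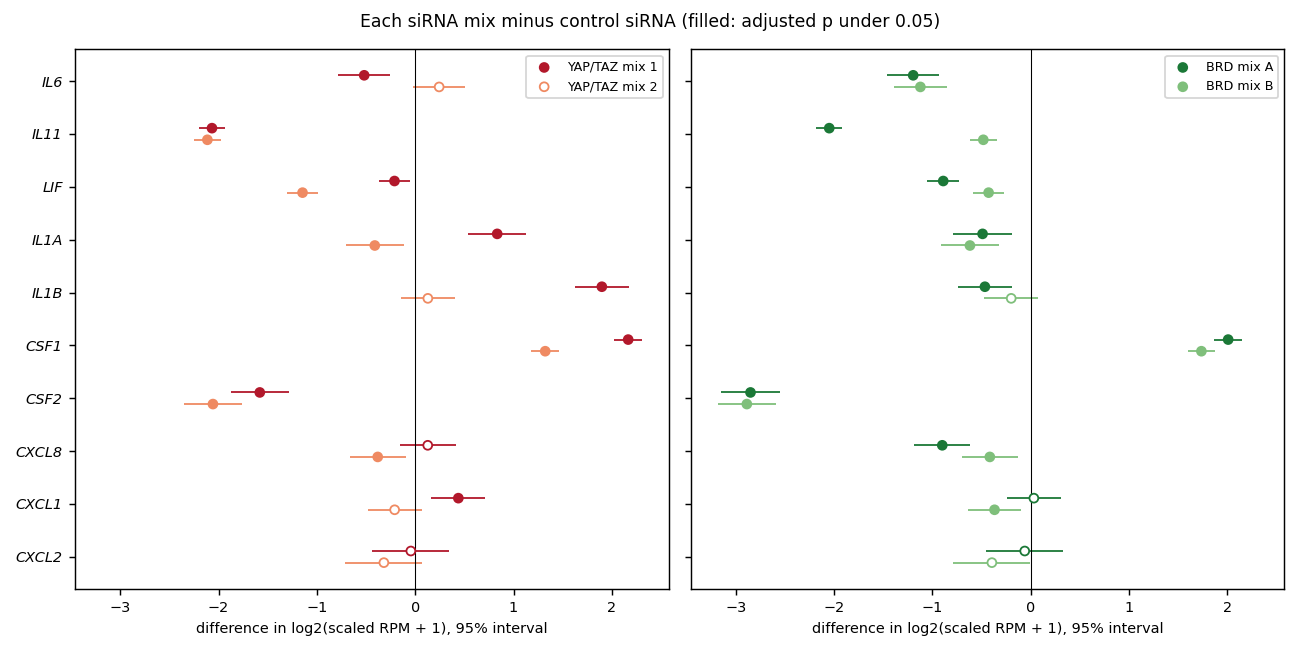
Difference in log2(scaled RPM + 1) of each siRNA mix from control siRNA (x axes) for each gene (y axis), with 95% intervals from limma; left, YAP/TAZ mixes; right, BRD mixes; filled points had an adjusted p under 0.05. IL11 overlays in the YAP/TAZ mixes at -2.07 and -2.11 and separates in the BRD mixes at -2.05 and -0.48, and IL1A lies on opposite sides of 0 in the YAP/TAZ mixes. The mix 1 points of IL1A and IL1B are a description, since both passed the filter only through that mix.

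The choice of control mattered for several of the genes. Control siRNA and DMSO cells both serve as controls, yet 6 of the 10 genes were higher in control siRNA than in DMSO and none was lower, while 25.4% of all genes were called higher and 28.7% lower. CSF2 averaged 8.22 ± 0.052 scaled RPM in control siRNA and 1.57 ± 0.16 in DMSO (SD, n = 2 each; log2 difference 1.84, adjusted p = 1.17e-09), and CSF1 averaged 165 ± 17.7 and 46.7 ± 1.78 (1.79, adjusted p = 3.39e-14). IL6 averaged 2.11 ± 0.34 in control siRNA and 0.6003 ± 0.068 in DMSO (0.95, adjusted p = 2.87e-06). CXCL1 (0.58), CXCL8 (0.57) and LIF (0.32) were also higher in control siRNA. IL11 (0.08, adjusted p = 0.312), IL1A (0.30), IL1B (0.09) and CXCL2 (-0.02) did not pass the test. With the same sum in every library the median of all genes moved by 0.11, 65.5% of the calls over all genes were higher instead of 46.9%, and IL11 (0.21, adjusted p = 0.0109) and IL1A (0.34, adjusted p = 0.04998) passed the test. Transfection, the siRNA itself and the vehicle differ together between these groups and cannot be told apart. Time in culture is not given for either group and may differ too.

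Set against DMSO instead of control siRNA, the knockdowns kept some results and not others. IL11 stood at -2.01 and CSF1 at 3.54 with YAP/TAZ siRNA, and at -1.19 and 3.67 with BRD siRNA, so that the direction held and the rise of CSF1 was larger. LIF stayed lower with both knockdowns (-0.35 and -0.33), and CSF2 stayed lower with BRD siRNA (-1.02, adjusted p = 1.44e-07). The fall of CSF2 with YAP/TAZ siRNA was absent on this scale (0.03, adjusted p = 0.852), and IL6 (0.82), CXCL8 (0.44) and CXCL1 (0.69) were higher in YAP/TAZ siRNA than in DMSO, with adjusted p of 7.26e-07, 0.00188 and 9.58e-06. With BRD siRNA, IL6 (-0.21), CXCL8 (-0.09), IL1A (-0.26) and IL1B (-0.24) no longer passed the test, and CXCL1 was higher (0.41, adjusted p = 0.00255). With JQ1, all 10 genes were also lower than in control siRNA, from -0.46 for IL1B to -3.01 for CSF2.

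**Figure D4:**
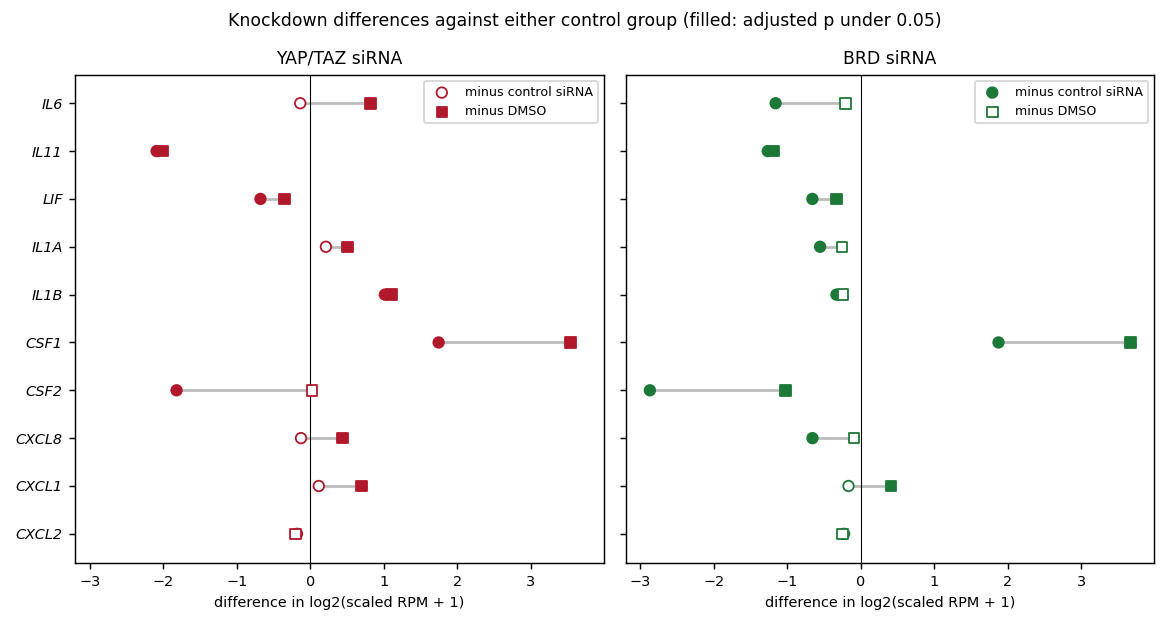
Difference in log2(scaled RPM + 1) of YAP/TAZ siRNA (left) and BRD siRNA (right) from control siRNA (circles) and from DMSO (squares) on the x axes, for each gene on the y axis; filled symbols had an adjusted p under 0.05. IL11, IL1B and CXCL2 moved little with the choice of control, and CSF1 and CSF2 moved by 1.79 and 1.84. The YAP/TAZ symbols of IL1A and IL1B are a description, since both passed the filter only through YAP/TAZ mix 1.

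JQ1 and BRD siRNA act on the same proteins by different means, and the difference of their differences was tested in the same model, at unlike times and against unlike controls. It passed the test for 5 members, with 60.1% of all genes called in either direction. CSF1 (-2.35), LIF (-1.34) and IL11 (-0.52) were more negative with JQ1. The IL11 value rests on mix B: against its own control IL11 stood at -2.05 in BRD mix A, -0.48 in mix B and -1.79 in JQ1. CSF2 (1.71, adjusted p = 1.37e-07) and IL6 (0.66, adjusted p = 0.00218) were more negative with BRD siRNA, but for IL6 the difference was 0.26 in edgeR (adjusted p = 0.784) and 0.21 in DESeq2 (adjusted p = 0.839). For CSF2 it was 1.61 in edgeR (adjusted p = 0.0422), on 5 to 8 reads per BRD siRNA library and 3 to 5 per JQ1 library. The CSF2 reference means were unlike, at 8.22 scaled RPM in control siRNA and 1.57 in DMSO. With the pseudocount, the lower DMSO mean limits how far CSF2 could fall with JQ1. For CXCL8 (-0.10, 95% interval -0.48 to 0.27) and IL1B (-0.04, 95% interval -0.40 to 0.32) no difference was detectable at this depth. Between the knockdowns, YAP/TAZ siRNA and BRD siRNA differed in 8 members, with 81.3% of all genes called. IL1B and IL1A are in that count as descriptions, because they passed the filter only through YAP/TAZ mix 1. With the same sum in every library the median of all genes moved by 0.16, and 63.0% of the calls over all genes were higher instead of 50.5%. IL1B (1.35), CSF2 (1.05), IL6 (1.02), IL1A (0.77), CXCL8 (0.53) and CXCL1 (0.28) were higher with YAP/TAZ siRNA, and IL11 (-0.83) and CSF1 (-0.13) lower. The IL11 difference was carried by BRD mix B (62.0 scaled RPM), since BRD mix A (20.3) stood close to the YAP/TAZ mixes (20 and 19.3). The CSF1 difference lost its call with upper-quartile scaling (-0.02, adjusted p = 0.708) and with no variance trend (-0.13, adjusted p = 0.0568), turned with the same sum in every library (0.05, adjusted p = 0.394) and was lost without YAP/TAZ mix 1 replicate 1 (-0.12), mix 2 replicate 1 (-0.12) or BRD mix B replicate 1 (-0.08). The CXCL1 difference was lost without BRD mix A replicate 1 (0.20, adjusted p = 0.0724) and in DESeq2 (adjusted p = 0.146). LIF did not pass the test between the knockdowns (-0.02, 95% interval -0.13 to 0.09), except with the same sum in every library (0.15, adjusted p = 0.0198).

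The receptors that read these cytokines were measured in the same libraries. Of 16 gp130 family receptor and signalling genes, all in the table, 4 rose and 7 fell with YAP/TAZ siRNA, 12 rose and 1 fell with BRD siRNA, and 11 rose and 3 fell with JQ1. Their median log2 differences were -0.08, 0.33 and 0.39, beside 0.07, -0.00 and 0.01 over all genes. For this and the lists that follow, the shares of all genes that rose and fell were 43.1% and 35.9% with YAP/TAZ siRNA, 37.6% and 37.6% with BRD siRNA, and 37.6% and 36.3% with JQ1. IL11RA, the receptor of IL11, rose in all 3 comparisons in which IL11 fell. It averaged 5.99 ± 0.46 scaled RPM in YAP/TAZ mix 1, 8.21 ± 0.45 in mix 2, 6.52 ± 0.51 in BRD mix A and 5.05 ± 0.51 in BRD mix B, against 2.46 ± 0.068 in control siRNA, and 12.02 ± 0.87 in JQ1 against 2.12 ± 0.014 in DMSO (SD, n = 2 each). Its log2 differences were 1.21, 0.96 and 2.06 with YAP/TAZ siRNA, BRD siRNA and JQ1 (adjusted p = 2.69e-10, 1.31e-08 and 6.76e-13). IL6ST, which encodes the shared gp130 subunit, rose with BRD siRNA (1.16, adjusted p = 1.98e-13) to 959 ± 58.6 scaled RPM in mix A and 896 ± 7.50 in BRD mix B, against 415 ± 37.6 in control siRNA. LIFR, the LIF receptor, and OSMR, the oncostatin M receptor, set the YAP/TAZ mixes apart. LIFR averaged 253 ± 2.31 scaled RPM in mix 1 and 38.4 ± 2.08 in mix 2 (difference 2.69, adjusted p = 2.87e-18), with 122 ± 10.9 in control siRNA between them, and OSMR was higher in mix 1 by 1.69. STAT5A fell with JQ1 (-1.26) and SOCS3, a feedback inhibitor of gp130 signalling, fell with YAP/TAZ siRNA (-0.37).

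Of 19 genes for IL-1 receptors, antagonists and signalling, 16 were tested, of which 10 rose and 3 fell with YAP/TAZ siRNA, 7 rose and 5 fell with BRD siRNA, and 5 rose and 5 fell with JQ1 (medians 0.33, 0.08 and 0.01), the JQ1 counts lying near the shares over all genes. IL1R1, the receptor of both IL-1 cytokines, averaged 16.4 ± 0.48 scaled RPM in YAP/TAZ mix 1, the group in which IL1A and IL1B stood highest, and 3.37 ± 0.28 in mix 2 (difference 2.00). It averaged 4.20 ± 0.24 in control siRNA. CASP1, the protease that matures interleukin-1 beta, rose with YAP/TAZ siRNA (1.15, adjusted p = 9.13e-09). Unlike IL1R1 it stood higher in mix 2 (4.67 ± 0.66 scaled RPM) than in mix 1 (2.70 ± 0.019), against 1.06 ± 0.23 in control siRNA. IL1RAP, the accessory chain of the receptor, rose with BRD siRNA (1.45, adjusted p = 6.64e-14), and IRAK1, a kinase downstream of it, fell with YAP/TAZ siRNA (-0.82) and with JQ1 (-0.86). IL1RAP averaged 26.2 scaled RPM in BRD mix A and 54.8 in BRD mix B, against 13.3 in control siRNA and 23.4 in DMSO.

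Of 8 listed receptors for CSF1, CSF2, CXCL1, CXCL2 and IL8 only CSF1R and CSF2RB were rows that could be tested; the neutrophil receptors CXCR1 and CXCR2 were not. CSF1R, the receptor of CSF1 and also 1 of the leukocyte markers above, averaged 14.2 ± 0.19 scaled RPM in YAP/TAZ mix 1, 21.5 ± 2.55 in mix 2, 0.704 ± 0.33 in BRD mix A and 0.324 ± 0.025 in BRD mix B, against 3.43 ± 0.26 in control siRNA, and 0.173 ± 0.096 in JQ1 against 1.27 ± 0.081 in DMSO. It rose with YAP/TAZ siRNA (2.06, adjusted p = 1.10e-12) and fell with BRD siRNA (-1.57, adjusted p = 1.26e-10) and with JQ1 (-0.96, adjusted p = 2.00e-06). CSF1 and its receptor were thus both higher after YAP/TAZ siRNA, while after BRD siRNA CSF1 was higher and CSF1R lower. CSF2RB, the signalling chain of the CSF2 receptor, fell with BRD siRNA (-0.32, adjusted p = 0.0141) and with JQ1 (-0.41, adjusted p = 0.00777).

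**Figure D5:**
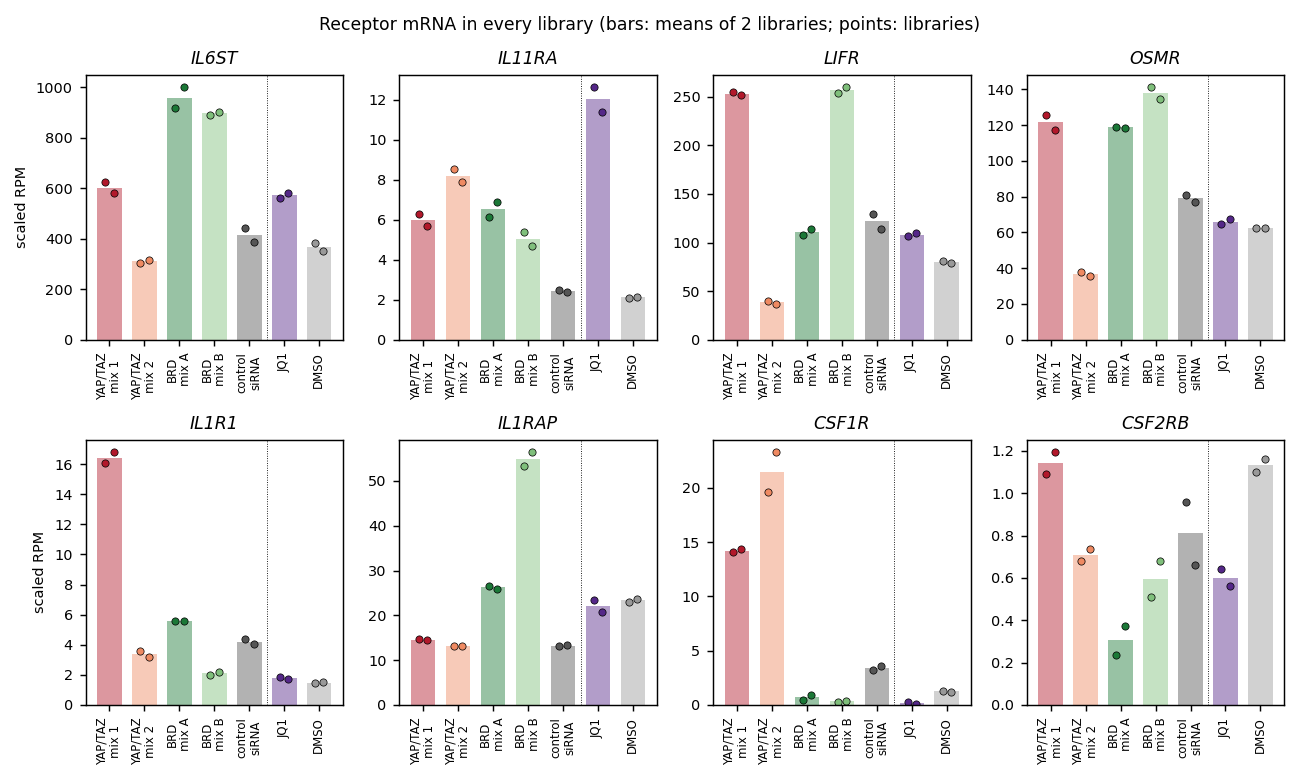
Levels of 8 receptor transcripts in scaled RPM (y axes, each from 0 and on its own scale) in the 7 groups (x axes); bars are means and points are the 2 libraries of a group. IL11RA stands highest in JQ1, LIFR and OSMR lowest in YAP/TAZ mix 2, and CSF1R highest in the YAP/TAZ mixes.

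Among other secreted signals, 4 of 20 listed chemokine ligands were tested (CXCL16, CCL5, CCL26 and CCL28), of which 2 rose with YAP/TAZ siRNA, 2 fell with BRD siRNA and 1 fell with JQ1. The 2 that rose, CCL26 and CCL5, are a description only. CCL26 passed the filter only through YAP/TAZ mix 2 (1.23 and 1.33 scaled RPM). CCL5 passed it only through 1 library of YAP/TAZ mix 1 (1.15) and 1 of BRD mix B (1.055). CCL28 fell with BRD siRNA (-1.06, adjusted p = 2.97e-08) and with JQ1 (-0.64, adjusted p = 0.00016). Of 27 other cytokines 10 were tested, of which 2 rose and 4 fell with YAP/TAZ siRNA, 1 rose and 7 fell with BRD siRNA, and 3 rose and 6 fell with JQ1 (medians -0.06, -0.62 and -0.53), the 4 that fell with YAP/TAZ siRNA being near the share over all genes. IL12A, which encodes a subunit of interleukin-12, fell in all 3 (-1.27, -1.40 and -1.28). CSF3, the granulocyte colony-stimulating factor, rose with YAP/TAZ siRNA (0.79, adjusted p = 2.50e-06), with 5.98 ± 0.10 scaled RPM in mix 1 and 2.88 ± 0.19 in mix 2 against 2.02 ± 0.37 in control siRNA, and fell with BRD siRNA (-1.14, adjusted p = 1.33e-08). IL18, an IL-1 family cytokine, fell with BRD siRNA (-1.97) and rose with JQ1 (0.87).

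Regulators of these genes were counted in the same way. Of 18 NF-kB and C/EBP genes, all tested, 9 rose and 6 fell with YAP/TAZ siRNA, 5 rose and 9 fell with BRD siRNA, and 7 rose and 5 fell with JQ1 (medians 0.20, -0.16 and 0.04), counts near the shares over all genes with YAP/TAZ siRNA and JQ1. NFKB1, which encodes the p50 subunit of NF-kB, fell with YAP/TAZ siRNA (-1.24, adjusted p = 3.90e-13) and with JQ1 (-1.22, adjusted p = 7.59e-12). The YAP/TAZ value averages 28.7 ± 1.39 scaled RPM in mix 1 and 9.27 ± 0.65 in mix 2, against 40.2 ± 2.78 in control siRNA. NFKBIA, the inhibitor of NF-kB, rose with BRD siRNA (1.11) and with JQ1 (0.72). The BRD value averages 193 ± 15.1 scaled RPM in BRD mix A and 73.4 ± 3.44 in BRD mix B, against 54.9 ± 6.56 in control siRNA (mix A against mix B 1.38, adjusted p = 1.20e-11). TNFAIP3, another inhibitor of the pathway, fell with JQ1 (-1.58). Of 18 AU-rich element binding and mRNA decay factors, all tested, 7 rose and 10 fell with YAP/TAZ siRNA, 6 rose and 7 fell with BRD siRNA, and 6 rose and 10 fell with JQ1 (medians -0.19, 0.00 and -0.22), the BRD siRNA counts lying near the shares over all genes. ZFP36, known as tristetraprolin, which promotes the decay of cytokine transcripts, rose with BRD siRNA (1.23, adjusted p = 1.67e-11) and with JQ1 (2.31, adjusted p = 6.90e-15), to 23.0 ± 1.26 scaled RPM in JQ1 against 3.84 ± 0.12 in DMSO. ELAVL1, which encodes the stabilising factor HuR, fell with YAP/TAZ siRNA (-0.54) and with JQ1 (-0.74).

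The genes whose pattern over the 7 group means (by Pearson correlation of log2(scaled RPM + 1)) was most like that of each member were sought among 10775 genes with a mean of at least 5 scaled RPM, as a description over 7 points that share libraries and controls. CSF1 was most like CEBPD, which encodes the factor C/EBP delta (Pearson r = 0.996), then TNRC6A (0.988) and ZSCAN29 (0.986). CEBPD averaged 10.2 ± 2.48 scaled RPM in YAP/TAZ mix 1, 6.72 ± 0.22 in mix 2, 9.0 ± 0.15 in BRD mix A and 8.41 ± 0.38 in BRD mix B, against 3.95 ± 1.90 in control siRNA, and 1.36 ± 0.16 in JQ1 against 2.09 ± 0.026 in DMSO. IL1B was most like CYP51A1, an enzyme of cholesterol synthesis (0.991), LIF like CAPN15 (0.985), CXCL1 like RNF168 (0.978), IL11 like CPSF4 (0.971) and CXCL8 like BHLHE40 (0.971). IL1A was most like NR2F6 (0.967), CXCL2 like THAP5 (0.962), IL6 like TMC7 (0.956) and CSF2 like ZNF93 (0.945). No p is given for these values.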

How the data were processed

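Stranded total RNA libraries depleted of ribosomal RNA were made from MDA-MB-231 cells, per the labels' protocols. Reads were handled with CASAVA 1.8.4, TopHat2 2.0.5, HTSeq 0.6.0, edgeR and R 3.0.0 on hg19, per the submitters' processing notes; the sources used here do not state how counting treated strand or which annotation it used. The deposited values were treated as a scaled signal and not as plain CPM, because the columns do not share 1 sum, as plain CPM would. They are whole multiples of the worth of 1 read (tolerance 0.01) in every library, so reads were recovered from the authors' values. A total of 3 genes were under 1 in every library.

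The main test was limma 3.58.1 (R 4.3.3, variance trend, two-sided) on log2(value + 1) for 13674 genes at 1 scaled RPM or more in 2 or more libraries, with all 14 libraries and 7 groups in 1 model and Benjamini-Hochberg adjustment over all genes within a comparison. The residual degrees of freedom were 7 and the prior 13.2. Adjusted p-values named without a tool come from this fit. The plan had assumed CPM; the test stayed the same. Alternatives used other pseudocounts, filters, scalings, controls, a block, edgeR 4.0.16 and DESeq2 1.42.0 on recovered reads, and each library left out. The code was tested on simulated data.

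The members and gene lists were chosen with earlier results of these data known. All members are described; of each list, at most 4 genes per comparison were named, those with the largest moderated t among genes called, and for each member up to 3 genes most like it. Median depth was 23539829 reads in genes. Counts of reads carry counting error, and the 2 libraries of a group differed by more than that. The mean chi-square per gene between them was 3.455 in YAP/TAZ mix 1, the lowest, and 10.75 in BRD mix A, the highest. Counting error alone would give about 1. The check of 1 targeted gene is not reported here.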

Additional observations from a re-analysis of the deposited data

Results flagged for a closer look

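These are results in which effects of 1 contrast differed between groups by a test of the difference itself. They were 5 of 10 genes for JQ1 against BRD siRNA effects, 8 of 10 for the YAP/TAZ mixes and 5 of 10 for the BRD mixes, where 60.1%, 65.7% and 50% of all genes were called, so the counts are at or near the background. All are differences in log2(scaled RPM + 1) by limma with an adjusted p under 0.05 over all genes, and their causes were not tested. The 8 include IL1A and IL1B, which are a description, since they passed the filter only through YAP/TAZ mix 1.

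CSF1, the macrophage growth factor, fell with JQ1 (-0.48) and rose with BRD siRNA (1.87), and the difference of the differences was -2.35 (adjusted p = 2.42e-14). LIF fell further with JQ1 (-1.34) and CSF2 with BRD siRNA (1.71). In edgeR the CSF2 difference was 1.61 (adjusted p = 0.0422), on few reads in the BRD siRNA and JQ1 libraries. For IL11 (-0.52) BRD mix A alone stood at -2.05 and mix B at -0.48, with JQ1 at -1.79. For IL6 (0.66) the difference was lost in edgeR (0.26, adjusted p = 0.784) and in DESeq2 (0.21, adjusted p = 0.839).

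Between YAP/TAZ mix 1 and mix 2, IL1A had 0.83 in mix 1 and -0.41 in mix 2, a difference of 1.25. Its fall in mix 2 was lost in 2 leave-outs and in DESeq2. IL1A and IL1B passed the filter on low values only through mix 1, so their differences are a description. IL6 fell in mix 1 (-0.52) while its value in mix 2 was 0.24 (adjusted p = 0.0870), a difference of -0.76 (adjusted p = 2.46e-05), and against DMSO the mix 1 value was 0.43 (adjusted p = 0.00394). CXCL1 rose in mix 1 (0.44) while its value in mix 2 was -0.21 (adjusted p = 0.151), a difference of 0.65. CXCL8 had 0.13 in mix 1 (adjusted p = 0.408) and fell in mix 2 (-0.38), a difference of 0.51. IL1B (1.77), LIF (0.94), CSF1 (0.84) and CSF2 (0.48) also differed.

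Between BRD mix A and mix B, IL11 differed by -1.57, CXCL8 by -0.48, LIF by -0.46 and CSF1 by 0.27. CXCL1 had 0.03 in mix A (adjusted p = 0.834) and fell in mix B (-0.37), and the difference of 0.40 (adjusted p = 0.0154) was lost in 3 of the leave-outs and in DESeq2 (adjusted p = 0.101).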

How the results depend on the processing

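Of the values of single genes under the alternatives, 1950 kept direction and call, 60 lost and 22 gained the call, and 38 changed sign; the causes of these changes were not tested unless stated. A filter at 5 left 5 of the 10 genes to test (IL11, LIF, CSF1, CSF2 and CXCL8), and by that construction the counts called became 1 higher for YAP/TAZ siRNA, 4 lower for BRD siRNA, 5 lower for JQ1, 1 higher for YAP/TAZ mix 1, 4 lower for BRD mix A and mix B each, 4 higher and 0 lower for mix 1 against mix 2, 1 higher for mix A against mix B, 1 higher for JQ1 against BRD effects and 2 higher for YAP/TAZ siRNA against BRD siRNA. Over all genes that filter gave 4834 higher and 4638 lower for YAP/TAZ siRNA, 4743 and 4474 for BRD siRNA, and 4582 and 4570 for JQ1. The number of genes it left to test is not given here. With the other control group, 6 were higher with YAP/TAZ siRNA, 2 higher and 3 lower with BRD siRNA, 1 lower with YAP/TAZ mix 1, 3 higher and 2 lower with YAP/TAZ mix 2, 2 higher with BRD mix A and 4 lower with BRD mix B. The 6 include IL1A and IL1B as descriptions, since they passed the filter only through YAP/TAZ mix 1. Of all 13674 genes, 6074 were then higher and 5440 lower with YAP/TAZ siRNA, and 5353 and 5422 with BRD siRNA. Counts over all genes for the single mixes against the other control are not given here. With the other control, signs turned for CSF2 (0.025), CXCL8 (0.44) and IL6 (0.82) with YAP/TAZ siRNA, CXCL1 with BRD siRNA (0.41), CSF2 (0.26), IL6 (0.43) and LIF (0.11) in YAP/TAZ mix 1, CXCL1 (0.37) and CXCL8 (0.18) in mix 2, and CXCL1 (0.21) and CXCL8 (0.15) in BRD mix B. YAP/TAZ mix 2 had 2 genes higher with a pseudocount of 4, upper-quartile scaling, the same sum and no variance trend, by the gain of IL6, and YAP/TAZ siRNA had 1 lower than BRD siRNA under the last 3 of these. Mix A against mix B had 1 higher with only the libraries compared and in DESeq2, and the JQ1 against BRD effects had 1 higher in edgeR and DESeq2, where IL1A turned (-0.75 and -0.85). With upper-quartile scaling and the same sum, signs turned for CXCL1 in mix A (-0.0025 and -0.063), CXCL2 between the controls (0.0015 and 0.0495) and LIF between the knockdowns (0.085 and 0.15), and with the same sum for CSF1 between the knockdowns (0.047).

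Leaving out 1 library at a time gave 1 to 2 higher and 3 to 6 lower for YAP/TAZ mix 2, 0 to 2 higher for mix A against mix B, 1 to 2 lower for YAP/TAZ siRNA against BRD siRNA and 7 to 8 lower for JQ1. Ranges crossed 0 for CXCL1 in mix A (-0.14 to 0.20), for CXCL2 between the controls (-0.18 to 0.14), in YAP/TAZ mix 1 (-0.20 to 0.11), in BRD mix A (-0.22 to 0.10) and between the knockdowns (-0.081 to 0.17), for LIF between the knockdowns (-0.0526 to 0.0133), for CSF2 (-0.071 to 0.15) and IL6 (-0.16 to 0.0126) between the BRD mixes, and for CXCL8 (-0.23 to 0.028) and IL1B (-0.0888 to 0.0117) between the JQ1 and BRD effects.

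Same-numbered libraries deviated together in some pairs of groups and in opposite directions in others (correlations -0.486 to 0.383). These values do not settle whether the numbers pair the samples. With the replicate block the genes called over the whole table were 5894 higher and 4905 lower for YAP/TAZ siRNA, against 5889 and 4904 without it, and no call of the 10 genes changed. Depth limits IL1A, IL1B, IL6 and CSF2 most, which had 5 or fewer reads in every JQ1 library.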
